A study of Mus musculus with 2 samples.

Results

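The data described here compare pseudoblastocysts grown from single blastomeres of 8-cell embryos (8CB) with those grown from single blastomeres of 4-cell embryos (4CB), isolated at the same age. All 6 8CB and all 6 4CB pseudoblastocysts of the series were taken by their column names, 12 of the 24 pseudoblastocysts used here. The other 12 are 6 1C embryos, from zygotes freed of the zona pellucida at 5 hours post insemination (hpi), and 6 2CB embryos, from 2-cell blastomeres isolated at 24 hpi. In the 12 compared here the blastomeres were isolated at 48 hpi, each was cultured alone, and the embryos were collected at 96 hpi for single-embryo RNA-seq. Oocytes of B6D2F1 females 8 to 9 weeks old were fertilised in vitro with sperm of ICR males 15 to 20 weeks old, the zona pellucida was removed with Actinase E, and the labels name no transgene, mutation or drug in any group. A pseudoblastocyst is an embryo with a cavity, taken without checking for an inner cell mass (ICM), so some of the 12 may have been vesicles of trophectoderm alone. How many parent embryos gave the blastomeres is not stated, so embryos of a group may be sisters, and p-values measure the spread between these embryos. The 8CB embryos were in the library pool labelled Mix-1/8cell, with the 1C embryos, and the 4CB embryos in the pool labelled Mix-2/4cell, with the 2CB embryos. Stage of isolation and pool therefore cannot be told apart in any difference between 8CB and 4CB given here.

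As background, a mouse blastocyst has an outer trophectoderm (TE), an epithelium that pumps fluid into the cavity and later forms much of the placenta, and an ICM. The ICM separates into epiblast, which gives the fetus, and primitive endoderm, which gives yolk sac. Hippo signaling and the factors Cdx2, Gata3 and Eomes set the TE apart, while Nanog and Sox2 mark the epiblast and Gata6, Gata4 and Sox17 the primitive endoderm.

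Total UMIs (unique molecular identifiers, the tags that count captured transcripts) were 70941, 313283 and 356749 at the lowest, median and highest of the 8CB embryos. In 4CB embryos they were 132725, 216325 and 1130360. The groups overlapped in depth, with a mean difference of -141401 UMIs (8CB minus 4CB; two-sided exact permutation test, p = 0.515). Levels are given as CPM, counts per 1000000 UMIs of the same embryo. After random thinning of all 12 to 70941 UMIs, 8CB embryos held 6842 to 7523 genes with a UMI, 7187 ± 287 (SD, n = 6). The 4CB embryos held 7698 to 8456, 8188 ± 295 (SD, n = 6). At equal depth no 8CB embryo reached the lowest 4CB embryo (exact permutation test, p = 0.00216, the smallest that 6 against 6 can give). Thinned in the same way, 1C embryos held 7226 to 7751 genes and 2CB embryos 7901 to 8351, a division that also follows the pools. Without thinning, 8CB embryos had 6905 to 10944 and 4CB embryos 8959 to 14371 genes detected (exact permutation test, p = 0.130). The largest count of 1 gene in 1 of the 12 embryos, 34736, is above the 4096 sequences that a UMI of 6 bases allows, so some UMI sequences were counted more than once for that gene, and intervals given here cover counting error only.

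**Figure D1:**
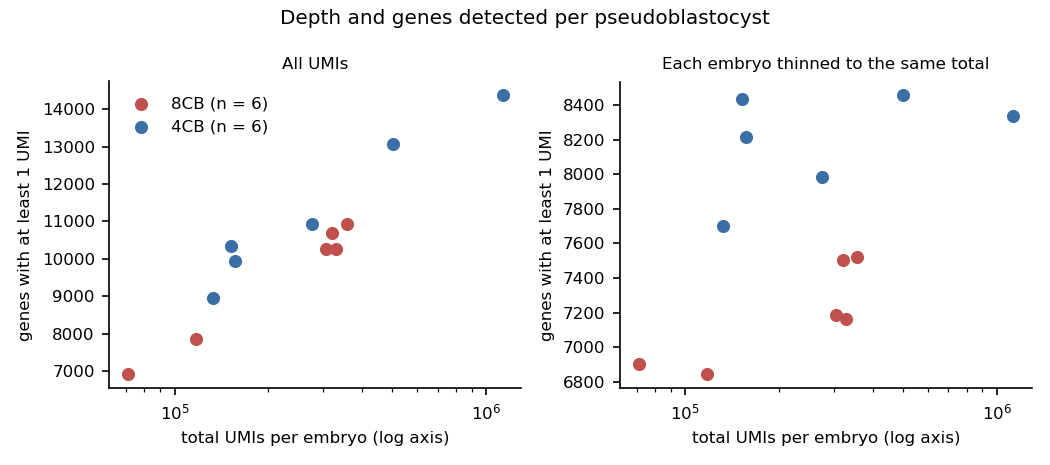
Genes with at least 1 UMI against total UMIs (log axis) in each of 6 8CB and 6 4CB embryos, on all UMIs and after thinning every embryo to 70941 UMIs. At full depth the groups overlap, and at equal depth the 8CB embryos lie at 6842 to 7523 genes and the 4CB embryos at 7698 to 8456.

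Of 4257 genes with enough UMIs to be tested, 1685 differed between 8CB and 4CB embryos at a Benjamini-Hochberg adjusted p below 0.1 in edgeR's quasi-likelihood test, 39.6% of those tested. There were 757 called higher in 8CB (17.8%) and 928 called lower (21.8%), and the median log2 fold change (8CB over 4CB, as everywhere here, with its SE) of all tested genes was -0.06. A change of at least 2 on the log2 scale was called higher for 112 genes and lower for 254. For 606 genes, 14.2% of those tested, no 8CB embryo overlapped any 4CB embryo in CPM. A gene under 34.4 CPM in all 6 embryos of a group was tested only if all 6 of the other group reached that level, so for 115 of the tested genes the lack of overlap follows from the filter, and no p is given here for a gene of that kind. The share called in each list below is to be read beside the 39.6% of all tested genes. These shares also count called genes of that kind, which entered the test through 1 group only. Across all tested genes, the mean correlation of log2 CPM between 8CB embryos was 0.775 over 15 pairs, and between 4CB embryos 0.777 over 15 pairs. Between the groups it was 0.539 over 36 pairs, given as a description, since pairs share embryos and genes are not replicates. On the first principal component, which held 43.0% of the variance, 4CB embryos lay between -48.2 and -27.2 and 8CB embryos between 31.3 and 47.6. The shallowest embryo, 8CB replicate 6, stood apart on the second component (14.7% of the variance) at -67.0, and without it 1901 genes were called.

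**Figure D2:**
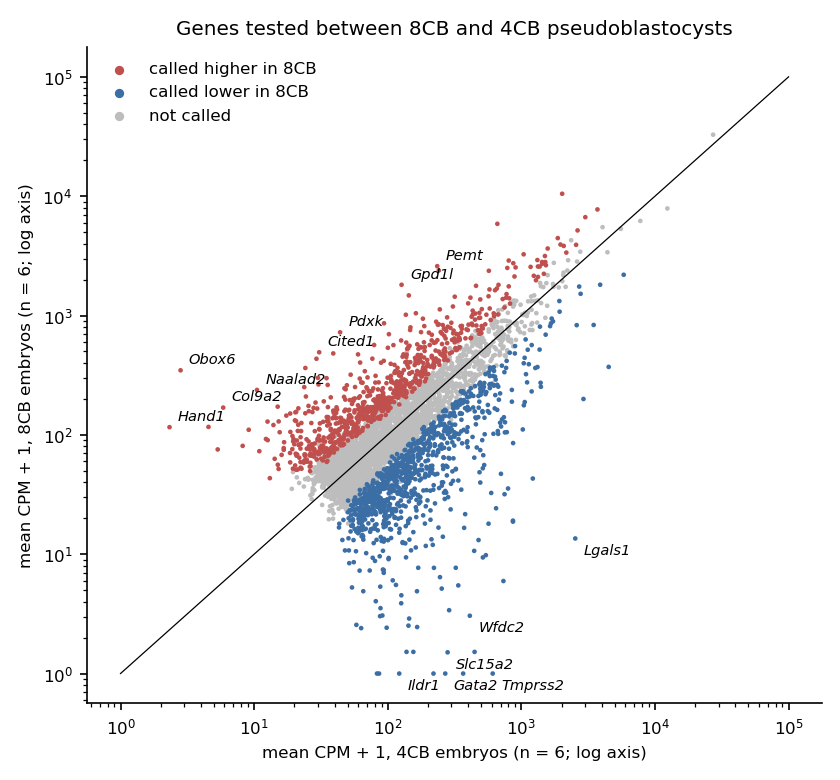
Mean CPM of each of 4257 tested genes in 4CB and in 8CB embryos, log axes, n = 6 each. Points are coloured for the 757 genes called higher in 8CB, the 928 called lower and those not called, and named genes such as Lgals1 and Obox6 lie far from the line of equal means.

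TE transcription factors were mostly lower in 8CB embryos. Of 14 tested members of the list 9 were called lower, 2 higher and 3 were not called, with a median log2 fold change of -1.86 (78.6% called). The called genes Gata2, Id2, Tfap2a and Hand1 met the filter through 1 group only, so this share rests in part on the filter. A median of -1.86 was also found with Gata2 set at its bound. In RNA of a whole embryo, fewer cells of a type and less RNA per cell cannot be told apart. Gata2, a zinc finger factor of trophoblast (chromosome 6, 88193891 to 88207032, GRCm38), had no UMI in any 8CB embryo and 79.1, 297 and 412 CPM at the lowest, median and highest 4CB embryo. Against a floor of 3 counts over the 8CB group it was at least 163-fold lower in 8CB. Cdx2, the homeobox factor that specifies TE, was at 5.61, 9.23 and 42.6 CPM in 8CB and 39.5, 83.7 and 158 CPM in 4CB embryos. The highest 8CB embryo thus just passed the lowest 4CB embryo, and the log2 fold change was -2.73 ± 0.53 (SE), with adjusted p = 7.22e-04. Eomes, a T-box factor of trophoblast stem cells, ranged from 6.23 to 127 CPM in 8CB and from 455 to 1145 CPM in 4CB embryos (-4.11 ± 0.46, adjusted p = 2.46e-06). Gata3, a zinc finger factor of early TE, was at 197, 256 and 358 CPM in 8CB against 1015, 1443 and 1725 CPM in 4CB (-2.32 ± 0.25, adjusted p = 2.09e-06). The groups did not overlap for Eomes or Gata3.

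Of the other 10 tested members, 5 were called lower, 2 higher and 3 were not called. Id2, an inhibitor of helix-loop-helix factors, lay at 0 to 12.1 CPM in 8CB and 396 to 1218 CPM in 4CB (-6.71 ± 0.48). Tfap2a lay at 0 to 14.1 CPM in 8CB and 65.9 to 227 CPM in 4CB (-5.70 ± 0.62), and Klf6 at 0 to 56.4 and 435 to 1004 CPM (-4.56 ± 0.42). Klf5, the factor with the most UMIs in the list, was lower by a smaller step, at 1040.0 to 4919.6 CPM in 8CB and 3354 to 9474 CPM in 4CB (-1.39 ± 0.35, adjusted p = 0.00509). Grhl2, an epithelial factor, was called lower (-1.06 ± 0.46, adjusted p = 0.0867), a call lost when any of 9 of the 12 embryos was left out (adjusted p = 0.105 to 0.248). It was also lost with DESeq2 (adjusted p = 0.103), with all 24 embryos in the fit (0.144), with no filter (0.112), with the replicate block (0.130) and at equal depth (0.308). Those called higher were Tfap2c, which acts in trophoblast and germ cells, at 171 to 544 CPM in 8CB and 108 to 394 CPM in 4CB (0.95 ± 0.32, adjusted p = 0.0315), and Hand1. Hand1, a factor of giant cell formation, had 46.7, 91.6 and 210.2 CPM in 8CB and was seen in 1 4CB embryo, at 7.96 CPM (5.17 ± 0.69). Tead4, which acts upstream of Cdx2, did not pass (0.13 ± 0.30, adjusted p = 0.765), nor did Elf3 (0.04 ± 0.55) or Sox21 (-0.17 ± 0.73, with 0 to 423 CPM in 8CB and 15.1 to 262 CPM in 4CB). Elf5, a trophoblast stem cell factor named here after its values were seen, did not pass the filter, with 1 4CB embryo at 19.8 CPM. It had 1 UMI over the 8CB embryos and 555 over the 4CB embryos, at 19.8 to 1040.0 CPM.

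Genes of the TE epithelium showed the same direction. Of 12 tested members of the list 10 were called lower, none higher and 2 were not called, with a median log2 fold change of -3.36 (83.3% called). Dsg2 and Tspan8, counted in that share, met the filter through the 4CB embryos only. Lgals1, a galectin, was at 0, 1.52 and 50.5 CPM in 8CB and 1101, 2446 and 3701 CPM in 4CB embryos (-7.25 ± 0.64, adjusted p = 2.57e-07). Krt18, a keratin of simple epithelia, was at 13.1, 39.7 and 89.7 CPM in 8CB and 745, 1025 and 1921 CPM in 4CB (-4.77 ± 0.44, adjusted p = 4.63e-07). The groups did not overlap for Krt18. The desmosome genes Dsg2 (-5.32 ± 0.53), Dsp (-2.44 ± 0.44) and Pkp2 (-1.20 ± 0.36) were called lower, as were Lcp1 (-4.92 ± 0.51), Dppa1 (-4.05 ± 0.61), Anxa2 (-2.67 ± 0.42) and Ptges (-1.06 ± 0.33). Tspan8, also called lower, had 1 UMI over the 8CB embryos and 39.5 to 147 CPM in 4CB. S100a11 (0.19 ± 0.31, adjusted p = 0.679) and Cldn4 (-0.30 ± 0.32, adjusted p = 0.511) did not pass and overlapped between the groups. The summed level of the 21 genes of the list was 2379 to 5317 CPM in 8CB and 7037 to 12583 CPM in 4CB. The keratin genes Krt7 (2 and 230 UMIs in 8CB and 4CB) and Krt8 (9 and 79 UMIs), named after their values were seen, did not pass the filter. Gata2, Elf5 and Tspan8, which mark TE, thus had 0 or 1 UMI in all over the 8CB embryos, which were taken for having a cavity, while Cdx2, Gata3, Klf5, Krt18 and S100a11 were detected in all 6. The 1C embryos, in the same pool as 8CB, had 7 UMIs of Gata2 and 4 of Tspan8. The TE epithelium list summed to a mean of 1975 CPM in 1C and 11226 CPM in 2CB, beside 3289 CPM in 8CB and 9579 CPM in 4CB.

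The genes set furthest below 4CB included surface, secreted and transporter genes. They are the 12 with the largest fall among the called genes that averaged 50 CPM or more over the 12 embryos and did not overlap, leaving out unnamed gene models and pseudogenes. Tmprss2, a membrane serine protease, had no UMI in 8CB and 303, 565 and 897 CPM in 4CB embryos, at least 298-fold lower. BC053393 (at least 166-fold), the alcohol dehydrogenase gene Adh1 (at least 82.8-fold) and the tricellular junction gene Ildr1 (at least 55.4-fold) also had no UMI in 8CB. Adh1 ranged from 43.9 to 904 CPM in 4CB. Adh1 and Slc15a2 each overlap an antisense gene with which they could share reads, since the strand setting of the counting is not given in the sources used here. Slc15a2, a peptide transporter, was at 132, 267 and 505 CPM in 4CB, and 1 8CB embryo held 1 UMI. The homeobox gene Cdx1, the actin-binding Tmsb4x and the protease Klk7 likewise had 1 UMI each over the 8CB embryos. Their 4CB levels were 68.9 to 285 CPM for Cdx1, 50.4 to 242 CPM for Tmsb4x and 68.1 to 1302 CPM for Klk7. The secreted proteins Wfdc2 (4 and 713 UMIs in 8CB and 4CB) and Obp2a (3 and 529 UMIs) complete the 12 with Gata2 and Lgals1.

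The 12 genes set furthest above 4CB by the same rule were of mixed function. Obox6, a homeobox gene of the Obox family (chromosome 7, 15833241 to 15839678), was at 69.9, 382 and 612 CPM in 8CB and at most 6.38 CPM in 4CB, a ratio of 314 over the groups (exact 95% interval 107 to 1525). Pemt, which makes phosphatidylcholine, was at 1367, 2404 and 4486 CPM in 8CB and 49.8, 257 and 402 CPM in 4CB (3.52 ± 0.44, adjusted p = 8.79e-06). Gpd1l, a relative of glycerol-3-phosphate dehydrogenase, was at 1313, 1829.6 and 2223 CPM against 46.1, 76.3 and 335 CPM (3.81 ± 0.42, adjusted p = 2.46e-06). Further enzymes were the vitamin B6 kinase Pdxk (4.16 ± 0.41), the thioesterase Ppt2 (4.01 ± 0.43), the hexosamine enzyme Gnpnat1 (3.87 ± 0.54), the vitamin C enzyme Gulo (3.60 ± 0.45) and the peptidase Naalad2 (4.33 ± 0.52). Pdxk, Naalad2 and Cux2 overlap antisense genes and Ppt2 a gene on its own strand, with which each could share reads. Over all results given here, 59 of 141 named genes overlap another annotated gene, 50 of them one on the opposite strand. The collagen gene Col9a2 (5.30 ± 0.68), the homeobox gene Cux2 (3.90 ± 0.61) and the coactivator Cited1 (3.97 ± 0.47) complete the group with Hand1. Cited1 was at 249 to 930.4 CPM in 8CB and 6.38 to 59.3 CPM in 4CB, and Gnpnat1 reached 1339.6 CPM in 8CB replicate 4 against 179 to 342 CPM in the other 5.

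Epiblast and ICM genes were called in both directions. Of 15 tested members of the list 8 were called higher, 2 lower and 5 were not called, with a median log2 fold change of 0.76 (66.7% called). Of all tested genes, 17.8% were called higher and 21.8% lower. Nanog, a homeobox factor of the epiblast, was at 145, 462 and 1149 CPM in 8CB and 31.9, 132 and 237 CPM in 4CB (1.99 ± 0.50, adjusted p = 0.00598). Replicates 1, 3 and 4 of 8CB held 681 to 1149 CPM of Nanog and replicate 2 held 243 CPM, all above the highest 4CB embryo, while replicates 5 and 6 held 145 and 183 CPM. Esrrb, a nuclear receptor of naive pluripotency, was at 70.5, 423 and 579.7 CPM in 8CB and 49.8, 102 and 217 CPM in 4CB (1.88 ± 0.42, adjusted p = 0.00226). Dppa4 (2.00 ± 0.39), Dppa3 (1.59 ± 0.31), Klf2 (1.74 ± 0.42), Spic (2.73 ± 0.66) and the threonine dehydrogenase gene Tdh (3.04 ± 0.59) were also called higher. Dppa3 was at 536 to 1049 CPM in 8CB and 159.5 to 496 CPM in 4CB, with no overlap. Nr5a2 was called higher (0.76 ± 0.32, adjusted p = 0.0815), a call lost when any of 6 embryos was left out (adjusted p = 0.112 to 0.145), with no filter (0.192) and at equal depth (0.152). Of the members with most UMIs, Tbx3 (0.48 ± 0.23, adjusted p = 0.113) and Tfcp2l1 (0.56 ± 0.31, adjusted p = 0.176) did not pass, and neither did Klf4 (0.29 ± 0.37), Utf1 (-0.34 ± 0.27) or Sall4 (-0.03 ± 0.28). Tbx3 passed as higher with DESeq2 (adjusted p = 0.0551), with all 24 embryos in the fit (0.0893), with the replicate block (0.0847) and when any of 4 embryos was left out (0.0312 to 0.0934). Tfcp2l1 passed without 8CB replicate 5 or 6 (adjusted p = 0.0660 and 0.0598).

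Sox2 went against most of the epiblast list. It was at 58.0 to 204 CPM in 4CB embryos, and in 8CB it had no UMI in replicates 2, 5 and 6, 19.7 and 27.3 CPM in replicates 4 and 3 and 168 CPM in replicate 1. Its log2 fold change was -1.57 ± 0.69 with adjusted p = 0.0904, a call lost when any of 10 of the 12 embryos was left out (adjusted p = 0.113 to 0.190), with DESeq2 (0.117), with a filter of 5 UMIs in 6 embryos (0.104) and at equal depth (0.118). Sox2 lies inside Sox2ot on the same strand, so reads could be split between these genes. Tet1, an enzyme of DNA demethylation, was called lower (-1.05 ± 0.38, adjusted p = 0.0394), but not without 4CB replicate 6 (adjusted p = 0.106). Pou5f1, which encodes OCT4, had 4 UMIs over the 8CB and 6 over the 4CB embryos and did not pass the filter. In other 4CB and 8CB embryos with a cavity, the study saw OCT4 protein in the ICM of most. So few UMIs are therefore not read as absence of Pou5f1, and the reason for them was not tested.

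**Figure D3:**
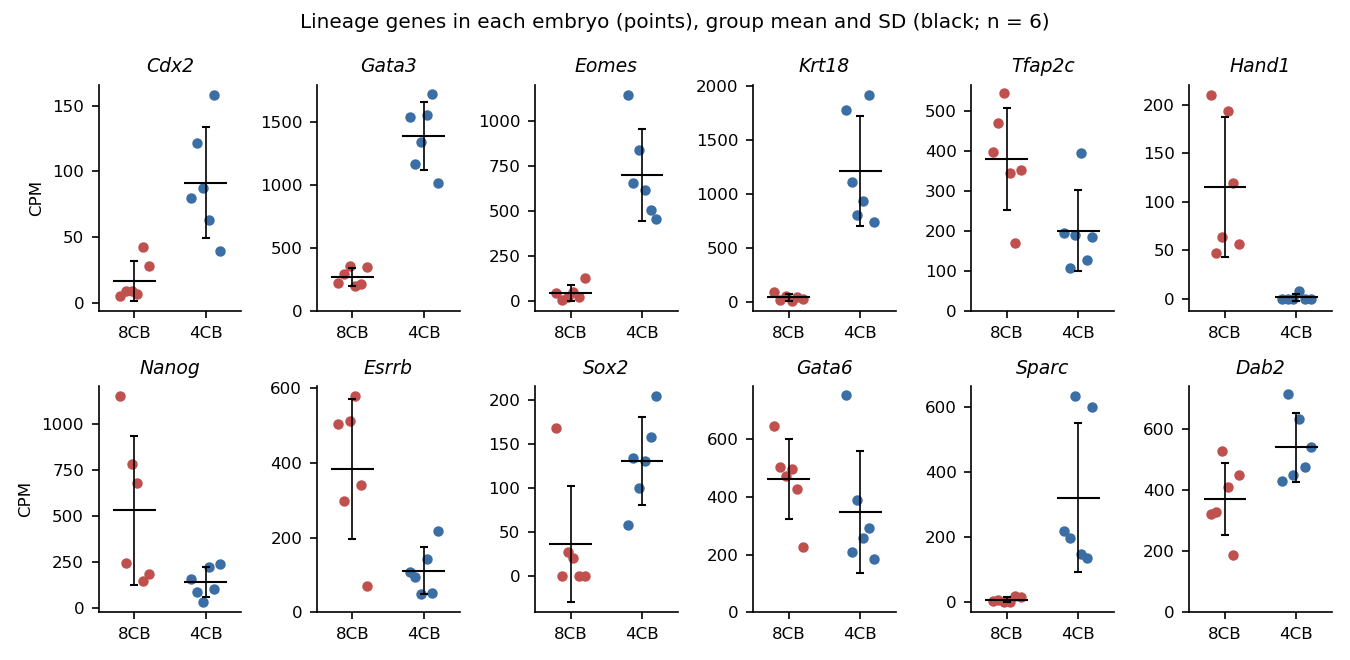
CPM of 12 lineage genes in each 8CB and 4CB embryo, with the group mean and SD (n = 6); each panel has its own linear axis. Eomes, Gata3 and Krt18 separate the groups with 8CB lower, and Nanog, Sox2, Gata6 and Dab2 overlap.

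The primitive endoderm list had few tested members. Of 8 tested members of the list 4 were called lower, none higher and 4 were not called, with a median log2 fold change of -0.96 (50% called). With 8 members this share lies near that of all tested genes. It counts Sparc, which met the filter through the 4CB embryos only. Sparc, a matrix glycoprotein, was at 0, 4.51 and 17.1 CPM in 8CB and 136, 208 and 634 CPM in 4CB (-6.08 ± 0.68). The lipid carrier Apoe (-3.18 ± 0.52) and the endocytic receptor Lrp2 (-1.61 ± 0.37), with 84.6 to 349.7 CPM in 8CB and 355 to 738 CPM in 4CB, did not overlap between the groups. The laminin gene Lamb1 was called lower (-1.43 ± 0.47, adjusted p = 0.0263) but not without 4CB replicate 3 (adjusted p = 0.128). The early factor Gata6 was at 226, 486 and 648 CPM in 8CB and 184, 277 and 754 CPM in 4CB (0.46 ± 0.33, adjusted p = 0.312). It passed as higher in 8CB without 4CB replicate 1, the highest 4CB embryo (adjusted p = 0.0423). Dab2 (-0.50 ± 0.27, adjusted p = 0.168, but adjusted p = 0.0983 with all 24 embryos in the fit), Fgfr2 (-0.37 ± 0.52) and Col4a2 (-0.28 ± 0.65) did not pass. Gata4, which did not pass the filter, had 11 UMIs over 3 8CB embryos and 118 over 4 4CB embryos, up to 169 CPM. Sox17, also under the filter and named after its values were seen, had none in 8CB and 228 UMIs over 4 4CB embryos, most of them in replicate 3 at 277 CPM.

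In the cumulus and granulosa cell list 3 of 11 genes had a UMI, and the summed level was 0 to 30.4 CPM in 8CB and 27.9 to 166 CPM in 4CB. That sum was mostly the steroid carrier gene Star (27 and 95 UMIs), while Fshr, Amh, Cyp19a1 and Foxl2 were at 0 in all 12. The oocyte list summed to 789 to 1693 CPM in 8CB and 866 to 1519 CPM in 4CB, with 1 of its 23 genes abundant enough to be tested and not called. Of the differentiated trophoblast list, 9 of 15 genes had a UMI and 2 were tested, Cited1 (higher) and Wnt7b (lower), and the list summed to 297 to 973 and 190.2 to 440.3 CPM. Prl3b1, a placental lactogen gene named after its values were seen, had 102 UMIs over all 6 8CB embryos and 3 in 1 4CB embryo, at 8.53 to 134 CPM in 8CB and 19.8 CPM in that 4CB embryo. The part of other cell types in the differences was not tested.

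The epithelial lists around cavity formation were called at about the rate of all tested genes, and every call was lower. In the list for cavity formation and tight junctions, 4 of 11 tested genes were called lower and none higher (36.4% called, median -0.37). Among genes of compaction and apical polarity, 5 of 11 tested genes were called lower and none higher (45.5% called, median -0.71). Of all tested genes, 21.8% were called lower. The cavity and tight junction list summed to 1297 to 2460 CPM in 8CB and 2998 to 4150 CPM in 4CB. The compaction list summed to 1646 to 2154 CPM in 8CB and 2570 to 4683 CPM in 4CB. Cldn6, a claudin of tight junctions, was at 0, 49.3 and 334 CPM in 8CB and 459, 765 and 1386 CPM in 4CB (-3.27 ± 0.70, adjusted p = 0.00160). Cdh1, the E-cadherin gene needed for compaction, was at 72.9, 276 and 392 CPM in 8CB and 441, 556 and 761 CPM in 4CB (-1.08 ± 0.32, adjusted p = 0.0162). The myosin gene Myh9 (-2.46 ± 0.34) and Ezr, which encodes the microvillus protein ezrin (-3.07 ± 0.46), were called lower as well. In the Hippo list, 2 of 12 tested genes were called lower and 1 higher (25% called, median 0.16), and the sign of that median changed with the processing. Tead2, a partner of YAP, was at 0, 157 and 272 CPM in 8CB and 584, 665 and 1032 CPM in 4CB (-2.29 ± 0.41, adjusted p = 3.54e-04).

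Receptor tyrosine kinases signal through ERK, which induces its own inhibitors. In the FGF and ERK list, 4 of 10 tested genes were called lower and 2 higher (60% called, median -0.69). In the EGFR and ERBB list, 4 of 6 tested genes were called lower and none higher (66.7% called, median -1.15), also with Errfi1 at its bound. Dusp6, a phosphatase of ERK that ERK itself induces, was at 0, 3.16 and 11.2 CPM in 8CB and 158, 314 and 550.2 CPM in 4CB (-5.73 ± 0.49). Spry2, another feedback inhibitor, was at 48.6 to 179 CPM in 8CB and 196 to 555 CPM in 4CB (-1.80 ± 0.38). Errfi1, which blocks EGFR, had no UMI in 8CB and 37.7, 76.8 and 142 CPM in 4CB, at least 41.3-fold lower. The kinase gene Map2k2, in contrast, was at 235 to 290.0 CPM in 8CB and 81.7 to 170.3 CPM in 4CB (1.20 ± 0.26, adjusted p = 0.00206), and the sheddase gene Adam17 did not pass (0.57 ± 0.43). The groups did not overlap for Spry2 or Map2k2.

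Genes of cholesterol and fatty acid synthesis were mostly lower in 8CB, and the counts, sum and promoter shares given here cover both. Of 23 tested members of the list 19 were called lower, none higher and 4 were not called, with a median log2 fold change of -1.48 (82.6% called). The summed level of the list was 1199 to 1607 CPM in 8CB and 3315 to 4020.0 CPM in 4CB. Promoters of 2 members are shown because both hold letters of the sterol regulatory element, which SREBP factors bind. They are the 250 bases before the RefSeq start (GRCm38.p6, plus strand), with TCACCCCA and CCAAT in capitals on either strand (CCAAT reads ATTGG on the other):
Srebf2, chr15:82147019-82147268: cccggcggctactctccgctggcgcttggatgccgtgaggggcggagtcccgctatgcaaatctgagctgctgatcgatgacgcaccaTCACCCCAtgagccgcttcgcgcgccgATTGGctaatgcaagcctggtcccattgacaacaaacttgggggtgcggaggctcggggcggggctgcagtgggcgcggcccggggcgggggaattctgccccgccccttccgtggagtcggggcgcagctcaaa
Hmgcs1, chr13:119690101-119690350: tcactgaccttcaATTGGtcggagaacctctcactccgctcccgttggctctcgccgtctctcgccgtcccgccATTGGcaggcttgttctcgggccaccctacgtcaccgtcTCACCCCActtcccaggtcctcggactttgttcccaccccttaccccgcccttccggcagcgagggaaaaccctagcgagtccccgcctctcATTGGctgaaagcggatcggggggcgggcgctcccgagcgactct
In these windows the element began 162 bases before the start in Srebf2 and 137 bases before it in Hmgcs1. Of 18 tested members with a promoter in the RefSeq table these 2 held TCACCCCA, 11.1%, against 1.33% of the 3385 tested genes with a promoter there and 1.54% of all 27025 genes. CCAAT stood in 15 of the 18 (83.3%), in 39.9% of the tested genes and in 37.5% of all genes. The letters were chosen with the results known, and a match describes the sequence, not binding.

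Srebf2, the transcription factor that drives cholesterol genes, was at 0, 1.40 and 9.83 CPM in 8CB and 75.3, 104 and 217 CPM in 4CB (-5.02 ± 0.61). Pmvk, of the mevalonate pathway, was at 22.9, 104 and 127 CPM against 217, 445 and 598 CPM (-2.17 ± 0.35, adjusted p = 1.12e-04). Hmgcs1, an early enzyme of the pathway named after its values were seen, was at 9.34 to 56.4 CPM in 8CB and 109.6 to 217 CPM in 4CB (-2.52 ± 0.41). The groups did not overlap for Pmvk or Hmgcs1.

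Genes of energy metabolism were called in both directions, and mostly lower in 8CB. For glycolysis and the pentose phosphate pathway, 10 of 15 tested genes were called lower and 2 higher (80% called, median -1.11). For the citrate cycle, 9 of 19 tested genes were called lower and 1 higher (52.6% called, median -0.44). For subunits of oxidative phosphorylation, 24 of 56 tested genes were called lower and 1 higher (44.6% called, median -0.51). Of all tested genes 39.6% were called and 21.8% were called lower. Hk1, the hexokinase that starts glycolysis, was higher, at 127, 198 and 321 CPM in 8CB and 0, 25.5 and 51.8 CPM in 4CB (3.06 ± 0.49, adjusted p = 1.23e-04), and overlaps the antisense gene Hk1os. Pgls, of the pentose phosphate pathway, was lower (-2.60 ± 0.42), and the aldolase gene Aldoa was at 103 to 268 CPM against 289.9 to 406 CPM (-0.84 ± 0.28, adjusted p = 0.0282). The pyruvate dehydrogenase gene Pdha1 was called higher (1.00 ± 0.31). Ndufa10, a subunit of complex I, was at 157, 227 and 381 CPM in 8CB and 524, 813 and 1120.1 CPM in 4CB (-1.83 ± 0.28, adjusted p = 7.18e-05). The 37 genes of the mitochondrial genome had no UMI in any of the 12 embryos, so the subunits counted here are nuclear genes.

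Genes that build and run ribosomes were higher in 8CB where they were called. For assembly of the large subunit, 14 of 37 tested genes were called higher and none lower (37.8% called, median 0.64). For assembly of the small subunit, 13 of 42 tested genes were called higher and none lower (31% called, median 0.51). For cytosolic ribosomal proteins, 19 of 66 tested genes were called higher and none lower (28.8% called, median 0.36). Npm1, a nucleolar chaperone, was at 1889, 2933 and 3190.2 CPM in 8CB and 422, 913 and 1254 CPM in 4CB (1.70 ± 0.27, adjusted p = 1.00e-04). Pelp1, which acts in large subunit maturation, was at 665 to 963 CPM against 153 to 323 CPM (1.85 ± 0.24), and Nhp2, of small nucleolar particles, at 377 to 789 CPM against 63.8 to 178 CPM (1.97 ± 0.29). Rpl4, the ribosomal protein gene with the most UMIs, did not pass (0.32 ± 0.25), while Rpl39l did (1.49 ± 0.29, adjusted p = 6.56e-04).

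Other lists of gene expression and protein turnover had most members not called. For translation factors, 13 of 48 tested genes were called higher and 4 lower (35.4% called, median 0.33), and Eif6 was at 486 to 1015 CPM against 226 to 345 CPM (1.59 ± 0.25). For mitochondrial ribosomal proteins, 10 of 59 tested genes were called higher and 3 lower (22% called, median 0.10), with Mrpl22 higher (1.81 ± 0.29). For the spliceosome, 11 of 44 tested genes were called higher and 2 lower (29.5% called, median 0.18), with Prpf3 (1.81 ± 0.39) and Sf3b1 (1.57 ± 0.35) higher. For the proteasome, 9 of 31 tested genes were called higher and 1 lower (32.3% called, median 0.43), with Psmd5 higher (1.58 ± 0.36) and Psmb6 lower (-0.84 ± 0.26). The share called in these 7 lists on ribosomes, translation, splicing and the proteasome was 22.0% to 37.8%, below the 39.6% of all tested genes. For ribosome assembly and cytosolic ribosomal proteins every call was higher, at 28.8% to 37.8% of tested members. Beside those shares, 17.8% of all tested genes were called higher.

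**Figure D4:**
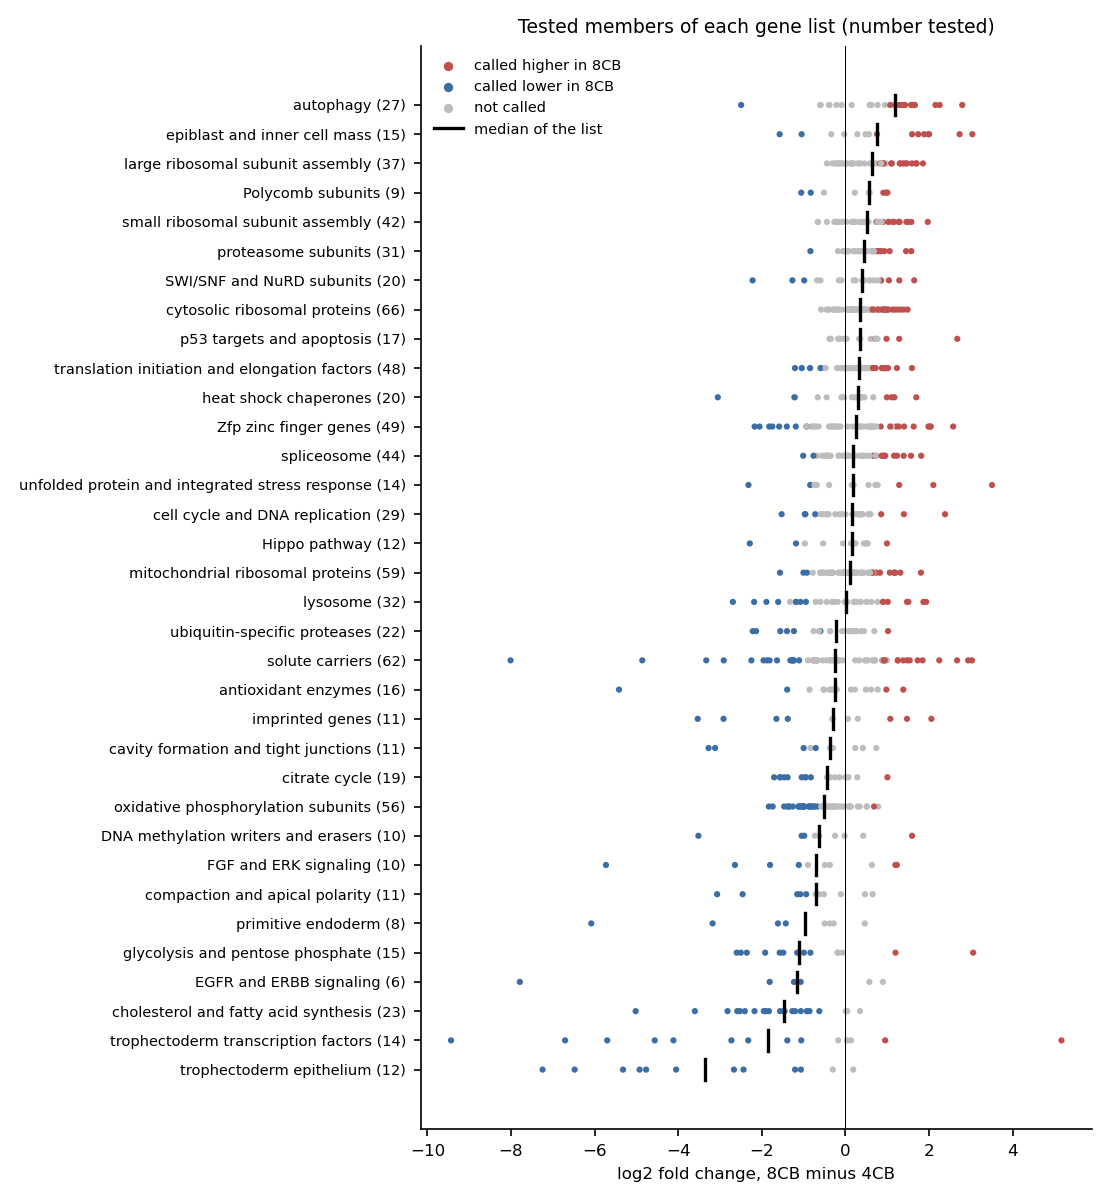
Log2 fold change (8CB over 4CB) of the tested members of each list, with each list's median; points are coloured for members called higher, called lower and not called. The TE lists have the lowest medians (-3.36 and -1.86), and autophagy is at 1.19.

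The called autophagy genes were mostly higher in 8CB. Of 27 tested members of the list 15 were called higher, 1 lower and 11 were not called, with a median log2 fold change of 1.19 (59.3% called). Map1lc3a, one of the LC3 proteins that coat autophagosomes, was at 540.4, 705 and 847 CPM in 8CB and 57.4, 106 and 156 CPM in 4CB (2.80 ± 0.28, adjusted p = 9.82e-07). Calcoco2, a cargo receptor and the member with the most UMIs, was at 3461, 4325 and 5582 CPM against 1091, 1851 and 2946 CPM (1.29 ± 0.27, adjusted p = 0.00138). Tfeb, a transcription factor of lysosome and autophagy genes, was the member called lower (-2.50 ± 0.45, adjusted p = 3.54e-04). Among lysosome genes, 8 of 32 tested genes were called lower and 7 higher (46.9% called, median 0.02), a median whose sign changed with the processing, with the ganglioside activator gene Gm2a lower (-2.69 ± 0.30) and the galactosidase gene Gla higher (1.93 ± 0.37). The groups did not overlap for Map1lc3a or Calcoco2.

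In the 4 stress lists 23.5% to 35.7% of tested members were called, below the 39.6% of all tested genes. Of p53 targets and apoptosis genes, 4 of 17 tested genes were called higher and none lower (23.5% called, median 0.35). Of all tested genes, 17.8% were called higher. Cdkn1a, which encodes the cell cycle inhibitor p21, was at 269, 924 and 2251 CPM in 8CB and 13.2, 90.2 and 507 CPM in 4CB (2.68 ± 0.66, adjusted p = 0.00470). In 8CB, replicates 2, 5 and 6 held 1347 to 2251 CPM of Cdkn1a and replicates 1, 3 and 4 held 269 to 501 CPM, within the 4CB range. The first 3 are also the embryos without a Sox2 UMI and with the lowest Nanog, a description of 6 embryos with no test. For heat shock chaperones, 4 of 20 tested genes were called higher and 2 lower (30% called, median 0.31). The co-chaperone gene Stip1 was at 2340.0 to 4339 CPM against 778 to 1533 CPM (1.70 ± 0.25) and the small heat shock gene Hspb1 at 13.1 to 155 against 255 to 736 CPM (-3.05 ± 0.42). For the unfolded protein and integrated stress responses, 3 of 14 tested genes were called higher and 2 lower (35.7% called, median 0.18), with Dnajb9, a chaperone gene of that response, higher (3.51 ± 0.46). For antioxidant enzymes, 2 of 16 tested genes were called lower and 2 higher (25% called, median -0.25). The glutathione transferase gene Gsta4 was at 0, 4.20 and 42.6 CPM in 8CB and 264, 479 and 674 CPM in 4CB (-5.42 ± 0.59, adjusted p = 2.09e-06), while Gsto1 was higher (1.39 ± 0.37).

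Of cell cycle genes, 4 of 29 tested genes were called lower and 3 higher (24.1% called, median 0.17), beside 39.6% of all tested genes, and the sign of that median changed with the processing. Ccne1, which encodes cyclin E1, was at 249, 556 and 896 CPM in 8CB and 30.1, 130.2 and 159 CPM in 4CB (2.38 ± 0.38, adjusted p = 1.21e-04), and the proliferation marker Mki67 was lower (-1.53 ± 0.53, adjusted p = 0.0331). Of DNA methylation writers and erasers, 3 of 10 tested genes were called lower and 1 higher (40% called, median -0.63), near the share of all tested genes. Dnmt3b, a writer of new DNA methylation, was at 14.1, 29.8 and 98.1 CPM in 8CB and 277, 435 and 784 CPM in 4CB (-3.52 ± 0.43, adjusted p = 6.34e-06), and overlaps the antisense gene Dnmt3bos. Of imprinted genes, 4 of 11 tested genes were called lower and 3 higher (63.6% called, median -0.30). Igf2, a growth factor gene expressed from the paternal copy, was at 0 to 15.6 CPM in 8CB and 46.1 to 237 CPM in 4CB (-3.53 ± 0.64), and Zrsr1 was higher (2.06 ± 0.57). H19, the neighbour of Igf2 expressed from the maternal copy, was named after its values were seen and did not pass the filter, since 1 4CB embryo was at 18.1 CPM, with 6 and 995 UMIs and 18.1 to 1448 CPM in 4CB.

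Of Polycomb subunits, 3 of 9 tested genes were called higher and 2 lower (55.6% called, median 0.56). Of SWI/SNF and NuRD subunits, 4 of 20 tested genes were called higher and 3 lower (35% called, median 0.41), and the NuRD genes Mta3 (1.04 ± 0.28) and Mta1 (-2.22 ± 0.50) were called in opposite directions. The list of 2-cell stage genes had 3 tested members, all called higher: Obox6, Pramel6 (1.85 ± 0.37) and Pramel7 (1.11 ± 0.33). Its 6 Zscan4 genes had no UMI in the 12 embryos. Of solute carriers, 16 of 62 tested genes were called lower and 14 higher (48.4% called, median -0.25), and the nucleoside transporter gene Slc29a3 was at 102 to 409 CPM in 8CB and 15.1 to 85.7 CPM in 4CB (3.03 ± 0.46). Of ubiquitin-specific proteases, 6 of 22 tested genes were called lower and 1 higher (31.8% called, median -0.22), among them Usp24 (-2.22 ± 0.34). Of Zfp zinc finger genes, 10 of 49 tested genes were called higher and 8 lower (36.7% called, median 0.26), as in Zfp239 (2.58 ± 0.53) and Zfp652 (-2.17 ± 0.49), with a median whose sign changed with the processing.

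The 1C and 2CB embryos show what the same pools gave for other stages. For all 24 genes set furthest apart, the 8CB and 1C means lay on one side of the 4CB and 2CB means. Obox6 was at a mean of 346 ± 238 CPM in 8CB, 348 ± 173 in 1C, 3.03 ± 2.02 in 2CB and 1.81 ± 2.64 in 4CB (mean ± SD, n = 6). Cdx2 was at 16.9 ± 15.1 CPM in 8CB and 23.4 ± 14.7 in 1C, against 91.5 ± 42.5 in 4CB and 89.4 ± 23.3 in 2CB. The TE transcription factor list summed to means of 3536, 3597, 11100.5 and 9184 CPM in 8CB, 1C, 4CB and 2CB. In that order the epiblast and ICM list summed to 8000, 7350, 5599 and 5533 CPM. The primitive endoderm list summed to 1282, 1264, 2687 and 3535 CPM. The difference between 8CB against 4CB and 1C against 2CB was tested for 5940 genes in all 24 embryos. It was called for 0 genes (0%) by edgeR's quasi-likelihood test, with 532 genes at an unadjusted p below 0.05, and for 38 by DESeq2, which was run on 23171 genes without the filter, where edgeR called 112. The lowest adjusted p was 0.175, shared by the 5 genes of lowest p. Errfi1, at 0 CPM in 8CB, had 8.27 ± 5.91 CPM in 1C, 85.1 ± 40.7 in 4CB and 43.2 ± 19.2 in 2CB. The kinase gene Pak2 had 10.7 ± 9.41 CPM in 8CB and 45.8 ± 28.7 in 1C, against 192 ± 81.8 in 4CB and 125 ± 43.0 in 2CB. Phlda1, a gene induced by ERK signaling, was at 50.8 ± 35.4 CPM in 8CB, 79.8 ± 30.7 in 1C, 259 ± 108 in 4CB and 60.7 ± 22.3 in 2CB, so that 4CB stood above the other 3 means. The ribonuclease P subunit gene Rpp21 was at 197 ± 113, 84.6 ± 28.3, 91.3 ± 31.0 and 160.3 ± 37.9 CPM in the same order, and the DNA repair nuclease gene Dclre1c at 25.7 ± 15.7, 73.3 ± 43.2, 52.5 ± 53.8 and 7.50 ± 5.87 CPM. An adjusted p above the threshold does not show that the comparisons were alike. On simulated counts with 200 changed genes among the 5940, the test of this difference found 49% of those changed by 2 (log2) and 0% of those changed by 1.

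**Figure D5:**
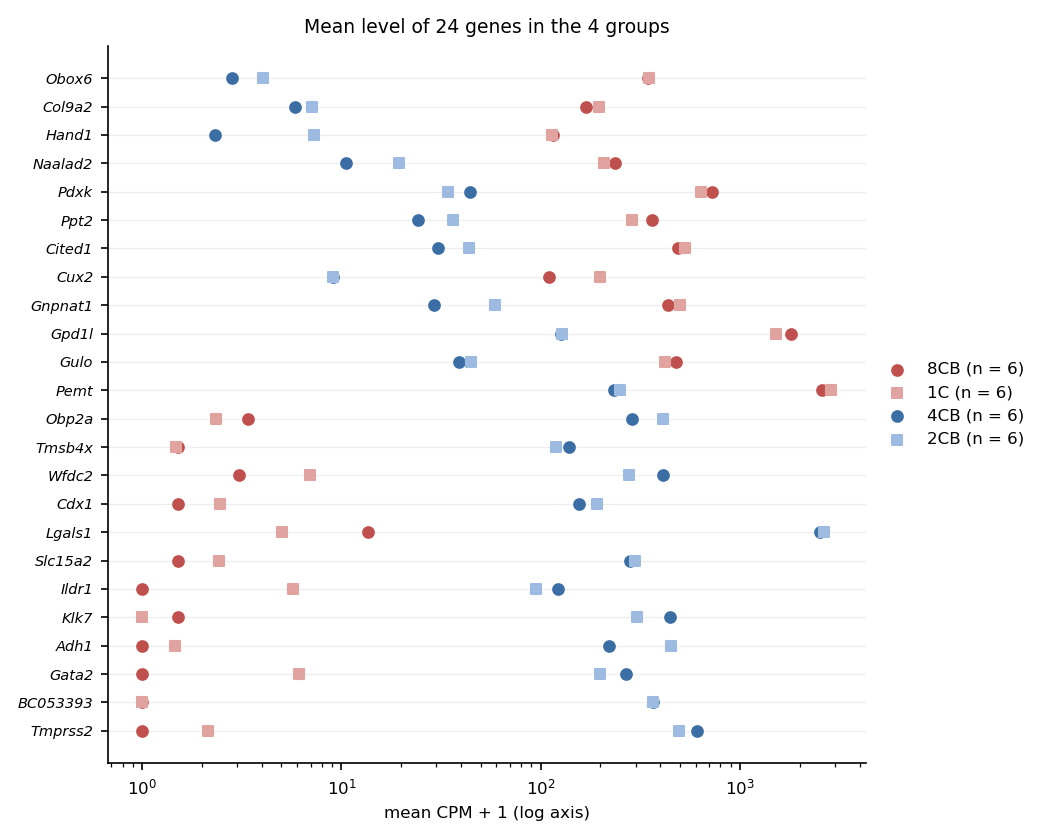
Mean CPM (log axis, n = 6 per group) of the 24 genes set furthest apart, in 8CB, 1C, 4CB and 2CB embryos. The 8CB and 1C means lie on one side of the 4CB and 2CB means for all 24 genes, as the library pools do.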

How the data were processed

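Single-embryo libraries were made by CEL-Seq2 in pools of 12 embryos and deposited by the authors as a table of UMI counts per gene, not normalized. The submitters' processing notes name HISAT2 2.2.6, HTSeq 0.6.1, DESeq2 1.10.1 and GRCm38. Per the study's methods, duplicate reads sharing a UMI were merged and counted once. The strand setting is not given in the sources used here. Of the table, 24 columns of other samples were not used. Embryos were grouped by column name, which the labels tie to a stage.

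The main test was edgeR 4.0.16's quasi-likelihood F test (R 4.3.3) on the 12 embryos, with TMM normalization (factors 0.905 to 1.07). Genes needed 34.4 CPM (10 UMIs at the median total) in at least 6 embryos and 15 UMIs in all, so a gene high in 1 group only had to pass in all 6 embryos of it. Calls used a Benjamini-Hochberg adjusted p below 0.1. The difference between comparisons used all 24 embryos and 1 mean per stage. Totals and genes detected were compared by two-sided exact permutation tests. Thinning to equal depth was a single random draw. On simulated counts with 200 changed genes among 4257, the main test found 94.5% of those changed by 2 (log2), with 7.80% false calls, and in a separate run 15% of those changed by 1. The simulation changed a far smaller share of genes than the 39.6% called in the data, so these rates need not hold there. Floors of 3 counts were 2.00 CPM over the 8CB group and 1.28 CPM over the 4CB group. Alternatives were DESeq2 1.42.0, its size factors, other filters, thinning, a stricter threshold, all embryos in the fit, a replicate block, and each embryo left out.

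Genes were named by a rule: the 12 largest changes each way (described with the results); in each of 39 lists the 2 tested members of highest CPM and the called member furthest each way; all tested members of the lineage lists; the 5 lowest p of the difference between comparisons; and genes the study names. Of the 188 genes so named some are not reported here. Genes named outside the rule are said to be. The comparison, the lists and the rule were chosen with earlier results of these data known. Coordinates came with the deposited counts, and symbols were found for 51633 of 52366 gene IDs. In GENCODE M21 (GRCm38), 47734 of the IDs had the same start and end. Promoters came from RefSeq.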

Additional observations from a re-analysis of the deposited data

Results flagged for a closer look

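Of 257 sets of 6 embryos (1 gene or summed list in 1 group, in log2 CPM), 20 had 1 embryo far from the other 5, where chance alone gives about 1 in 20. In 8CB replicate 6, the shallowest embryo, Esrrb (70.5 CPM), Dppa4 (155 CPM), Gata6 (226 CPM), Dnajb9 (56.4 CPM), Tead2 (0 CPM), Phlda1 (0 CPM) and the summed primitive endoderm list (874 CPM) were lowest, and Rpp21 (423 CPM) was highest. In 8CB replicate 4 Pmvk (22.9 CPM) and Zfp652 (0 CPM) were low and Gnpnat1 (1340 CPM) was high. Tead4 was low in 8CB replicate 2 (80.9 CPM), Cdh1 in 8CB replicate 1 (72.9 CPM) and the summed cumulus and granulosa list in 8CB replicate 5 (0 CPM). In 4CB replicate 6 Anxa2 (98.8 CPM) and Dppa1 (178 CPM) were low and Utf1 (1990 CPM) was high. Nhp2 was low in 4CB replicate 2 (63.8 CPM), BC053393 high in 4CB replicate 5 (640.4 CPM) and Hand1 present in 4CB replicate 4 alone (7.96 CPM).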

How the results depend on the processing

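The count of 1685 called genes became 3250 with no filter on low counts (19486 genes tested), 2720 with DESeq2, run on the same 19486 genes with its own filtering so that test and filter both changed, and 609 with all embryos thinned to equal depth and the filter run again, which left fewer genes to test. It stayed within 1.5 times under 6 other alternatives (1278 to 2388) and between 1570 and 1901 when 1 embryo was left out. With the replicate number as a block 1650 genes were called. Same-numbered embryos share a barcode and no stated origin, their deviations had a mean correlation of 0.05, and 1 of 6 8CB embryos correlated best with its own number, so the numbers were not taken as pairs. The difference between comparisons, called for 0 genes, was called for 112 with no filter and for 38 with DESeq2, both run on 23171 genes, for 0 to 14 with 1 embryo left out (14 without 1C replicate 6 and 4 without 4CB replicate 5), and for 0 with the block. The difference in total UMIs ranged from -193161 to 6366 with 1 embryo left out, the last without 4CB replicate 4, the deepest embryo. The difference in genes detected at equal depth, -1001, ranged from -1099 to -932 with 1 embryo left out, and was -1784 without thinning, no longer past the threshold (exact permutation test, p = 0.130).

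Of 2489 values of the printed tested genes under the alternatives, 2418 kept their direction and side of the threshold, 38 no longer passed, 11 newly passed and 22 changed direction. The calls lost under some alternative were those of Grhl2, Sox2, Nr5a2, Lamb1 and Tet1. The changes of direction were all in genes that were not called, Elf3 (-0.080 with the block, and -0.46 to 0.51 with 1 embryo left out), Sall4 (0.019 with the block, and -0.12 to 0.19 with 1 left out), Sox21 (0.12 thinned, and -0.92 to 0.23 with 1 left out), Klf4 (-0.21 thinned), S100a11 (-0.066 to 0.39 with 1 left out, the first without 8CB replicate 2) and Col4a2 (-0.82 to 0.15 with 1 left out, the last without 4CB replicate 3), all as log2 fold changes. The cause was not tested. The shallowest embryo, 8CB replicate 6, sets the depth of the thinned tests.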
